A study of Mus musculus with 3 samples.

Results

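Toll-like receptors and their adaptors were followed as 10 genes in primary chondrocytes from mouse knee joint cartilage. The members are the receptor genes Tlr1 to Tlr7 and the adaptor genes Myd88, Ticam1 and Ticam2, found by gene symbol, and all 10 were among the 44788 genes of the count table. In the cKO group (2 libraries) the cells had the genotype Col2a1-CreERT2;Kdm6bf/f, and in the Control group (1 library) they had Kdm6bf/f alone. The strain was C57BL/6, and its age is not given in the sources used here. The floxed Kdm6b alleles and the drug, 1 µM 4-hydroxytamoxifen over 48 h, were common to both groups, so by label the groups differ in the recombinase transgene. That recombinase is active only once tamoxifen binds it, and the Col2a1 promoter limits it to cells that use this cartilage collagen gene. Kdm6b encodes a demethylase that takes repressive methyl marks off histone H3. The labels do not say how many mice gave each library, and with 1 Control library the spread among controls was not measured.

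Toll-like receptors are membrane proteins that recognise molecules of microbes and, in some reports, fragments of damaged tissue matrix. Tlr1, Tlr2, Tlr4, Tlr5 and Tlr6 act mainly at the cell surface, whereas Tlr3 and Tlr7 sit in endosomes and bind RNA. On ligand binding, a domain inside the cell recruits adaptors. Most receptors use Myd88, which leads to NF-kB and inflammatory cytokines. Tlr3 uses Ticam1 (also called TRIF), which leads to interferon genes, and Tlr4 can use both routes, reaching Ticam1 through Ticam2 (also called TRAM). Chondrocytes are known to express several of these receptors, and Tlr2 and Tlr4 have been studied there for their response to matrix fragments in joint disease.

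The 3 libraries held between 12489738 and 12636471 counts. The cKO libraries differed from each other by more than counting noise (chi-square of 9.06 per gene over 16293 genes), and Xist, the RNA made from the inactive X chromosome of females, had 2 and 10081 counts in cKO replicates 1 and 2, against 1 in the Control, so the 2 cKO libraries did not come from the same animal. In this marker of female cells cKO replicate 2 differed from the Control too, while cKO replicate 1 was level with it. In cKO replicate 1 alone the log2 ratio to the Control was 2.02 for Tlr3 and 1.08 for Tlr5. Each of these ratios sets 1 library against 1, and the part of sex in the values of these genes was not tested. Kdm6b had 1049 and 948 counts in cKO, against 1289 in the Control, a log2 fold change of -0.39 ± 0.14 (SE; edgeR adjusted p = 0.138) that did not pass. Which of its exons are floxed is not given in the sources used here, so this value checks the labels only in part. All 10 chondrocyte markers were detected in every library, but their summed level was 15490 and 14510 CPM (counts per 1000000 on the TMM-scaled library size) in cKO, against 26250 CPM in the Control, with all 10 below the Control in both cKO libraries and 9 passing as lower in edgeR (Col2a1, adjusted p = 0.283, did not). In bulk RNA, fewer cells of a type and less RNA per cell cannot be told apart.

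Tlr3, the receptor for double-stranded RNA, was the member that rose in cKO chondrocytes. It was about 4-fold higher in each cKO library than in the Control. Tlr5, the flagellin receptor, was about 2-fold higher in each cKO library but did not pass the test. The fitted values of Tlr2, Tlr4, Tlr6, Myd88 and Ticam1 differed by less than 1.5-fold, with the intervals given below. Tlr1, Tlr7 and Ticam2 had between 0 and 9 counts per library and were too low to be tested. Of the 7 members that passed the filter on low counts, 1 rose and 0 fell at an adjusted p under 0.05 in edgeR's quasi-likelihood test, and 3 (Tlr3, Tlr5 and Myd88) had an unadjusted p under 0.05. Over all 15529 genes tested, 3.01% rose and 1.9% fell, 4.91% in either direction, and 15.7% had an unadjusted p under 0.05. In DESeq2, 1 member had an unadjusted p under 0.05, as did 941 of all genes. The median log2 fold change of the 7 tested members was 0.36, beside -0.00 over all genes tested. In 6 of the 7, both cKO libraries lay above the Control in CPM, as was the case for 36.6% of all genes tested, and in 0 of the 7 both lay below it, against 37.4% of all genes.

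**Figure D1:**
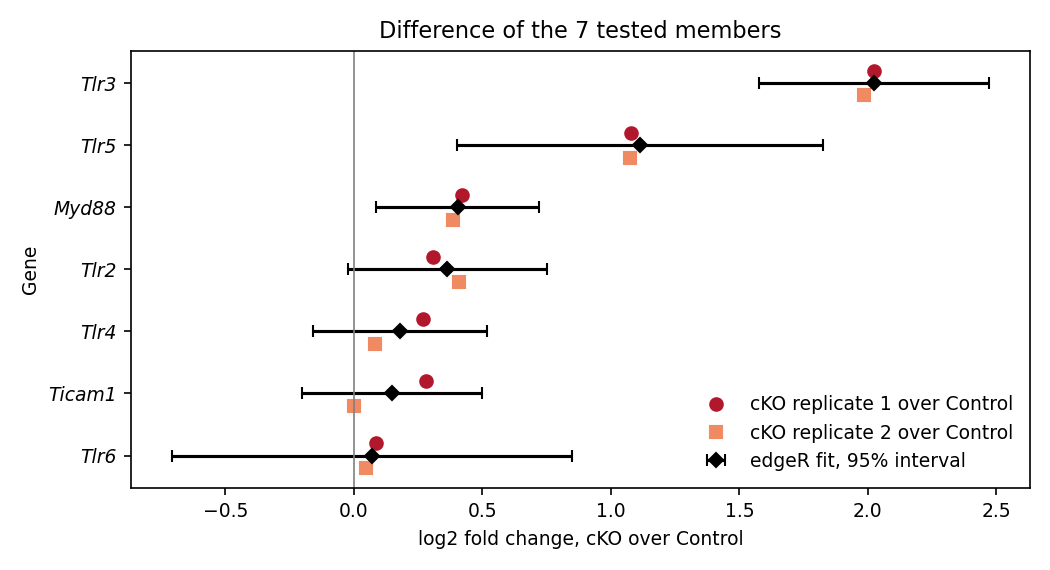
The log2 fold change of cKO over Control (horizontal axis) for the 7 tested members (vertical axis). Diamonds with bars are the edgeR fit with its 95% interval, and circles and squares are cKO replicates 1 and 2 over the Control. Tlr3 lies at 2.02 with both libraries close to the fit, the interval of Tlr5 runs from 0.40 to 1.83, and Ticam1 replicate 2 lies at the level of the Control.

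Promoter sequence was taken from RefSeq on GRCm38.p6, as 250 bases before to 50 after the start of each gene. The search covered 9 promoters of 7 of the 10 members. Tlr4, Tlr7 and Ticam2 were not included in the search, and this does not show that RefSeq lacks an entry for any of them. The promoters shown are those of Tlr3, which rose, and of the next highest members, Tlr5, Myd88 and Tlr2. One of the 2 of Tlr6, whose level was close to that of the Control, is also shown. It was picked because it held the first of the motifs listed below. The windows of Tlr3, Myd88 and this Tlr6 promoter lie inside the GENCODE spans of these genes, downstream of the GENCODE start. Capitals mark matches to 4 motifs, searched on both strands. These were the core of the interferon-stimulated response element (ISRE), the interferon gamma activation site (GAS, TTCNNNGAA), the NF-kB consensus, and a shorter run of the ISRE (TTTCNNTTT) that was added after the promoter letters had been seen and lies within every ISRE core match.
Tlr3 (chr8:45410331-45410630, minus strand): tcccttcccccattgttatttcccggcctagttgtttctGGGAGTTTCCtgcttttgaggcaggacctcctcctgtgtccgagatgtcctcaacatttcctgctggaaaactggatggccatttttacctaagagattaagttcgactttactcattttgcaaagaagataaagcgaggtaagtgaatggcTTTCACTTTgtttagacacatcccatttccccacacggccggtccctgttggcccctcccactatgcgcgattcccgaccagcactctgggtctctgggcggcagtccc
Tlr5 (chr1:182954538-182954837, plus strand): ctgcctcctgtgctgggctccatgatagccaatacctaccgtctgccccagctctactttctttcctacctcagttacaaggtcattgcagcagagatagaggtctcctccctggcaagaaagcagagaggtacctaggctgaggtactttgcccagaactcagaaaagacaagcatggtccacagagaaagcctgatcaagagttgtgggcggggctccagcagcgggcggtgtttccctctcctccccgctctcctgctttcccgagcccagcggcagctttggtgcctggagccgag
Myd88 (chr9:119339969-119340268, minus strand): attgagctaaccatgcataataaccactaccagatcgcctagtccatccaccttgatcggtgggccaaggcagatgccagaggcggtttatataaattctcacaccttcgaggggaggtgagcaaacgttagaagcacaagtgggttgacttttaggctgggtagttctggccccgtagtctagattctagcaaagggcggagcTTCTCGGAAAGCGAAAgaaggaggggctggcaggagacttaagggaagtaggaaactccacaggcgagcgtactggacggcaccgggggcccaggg
Tlr2 (chr3:83841559-83841858, minus strand): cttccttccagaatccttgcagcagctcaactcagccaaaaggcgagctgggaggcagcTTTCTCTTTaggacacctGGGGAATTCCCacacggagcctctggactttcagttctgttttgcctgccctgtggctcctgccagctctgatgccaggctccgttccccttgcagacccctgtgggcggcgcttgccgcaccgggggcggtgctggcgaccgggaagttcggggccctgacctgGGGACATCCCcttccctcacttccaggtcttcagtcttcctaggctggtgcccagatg
Tlr6 (chr5:64959117-64959416, minus strand): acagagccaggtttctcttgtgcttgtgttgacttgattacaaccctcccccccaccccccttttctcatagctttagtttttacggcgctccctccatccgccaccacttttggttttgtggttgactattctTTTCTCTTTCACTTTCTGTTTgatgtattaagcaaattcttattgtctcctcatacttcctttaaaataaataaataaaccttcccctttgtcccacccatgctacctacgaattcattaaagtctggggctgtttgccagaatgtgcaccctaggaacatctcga

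The ISRE core, which interferon-activated factors bind, was not present as these letters in the Tlr3 window. Tlr3 held the shorter run at positions -59 to -51 from the start site and an NF-kB consensus match at -211 to -202. Myd88 held an ISRE core on the opposite strand at -40 to -31, which overlaps a GAS match at -46 to -38. Tlr6 has 2 promoters in RefSeq. The one shown held overlapping ISRE core matches at -116 to -107 and -110 to -101, and a further match to the shorter run at -104 to -96. The other (chr5:64959999-64960298) held no ISRE core and GAS matches at -3 to 5 and 7 to 15. Tlr1 also has 2, of which one held a GAS match at -228 to -220 and the other none of the 4 motifs. Tlr2 held NF-kB consensus matches, overlapping ones between -173 and -163 and another that begins at -8, and the shorter run at -191 to -183. The Tlr5 window and that of Ticam1 held none of the 4. Among all 32851 promoter windows of this length, 3.44% held the ISRE core, 8.3% the GAS, 4.51% the NF-kB consensus and 10.6% the shorter run. A match describes letters and does not show that a factor binds there.

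**Figure D2:**
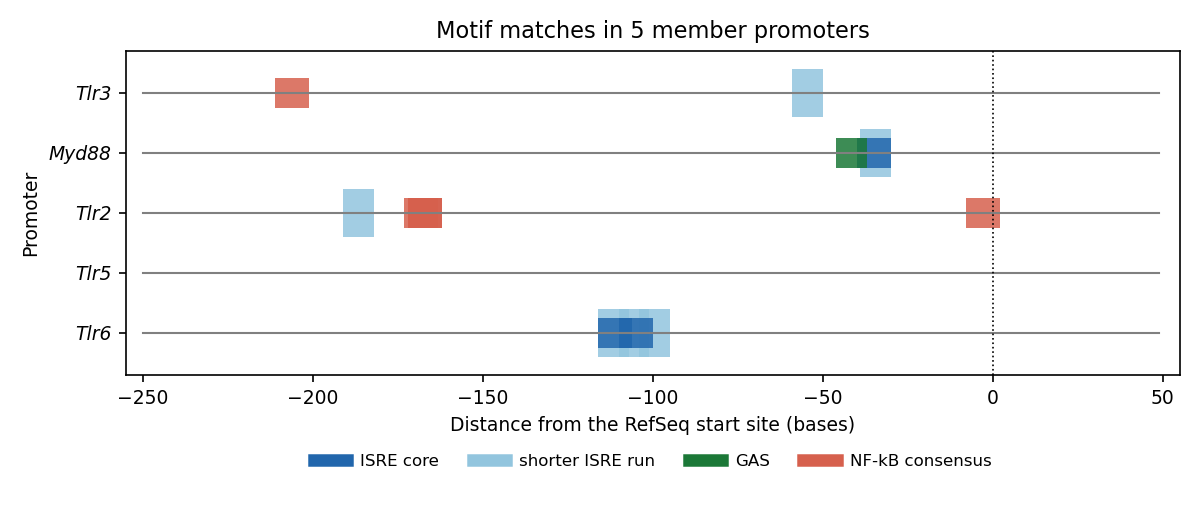
Motif matches in the 5 promoters shown (rows) by distance from the RefSeq start site in bases (horizontal axis, dotted line at the start). Blue marks the ISRE core, light blue its shorter run, green the GAS and red the NF-kB consensus. Myd88 has an ISRE core match, as does the Tlr6 promoter shown, which was picked for holding one. Tlr3 has the shorter run and an NF-kB match, and Tlr5 has none.

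Tlr3 (ENSMUSG00000031639.12, chromosome 8, 45395665 to 45411080, minus strand, GRCm38) had 373 counts in cKO replicate 1 and 373 in cKO replicate 2, against 90 in the Control. The cKO libraries were thus alike, and both stood far above the Control. These counts are 29.9 and 29.1 CPM in cKO, against 7.25 CPM in the Control, where the exact 95% counting interval ran from 5.83 to 8.92 CPM. The log2 fold change was 2.02 ± 0.21 (SE), a 4.07-fold rise (adjusted p = 8.04e-07 in edgeR), and 1.39% of all genes tested had a higher one. The gap between the cKO libraries was 0.04 on the log2 scale. The call ended when genes with low counts were kept in the fit (adjusted p = 0.188 in edgeR) and when the prior degrees of freedom were set to 3 (adjusted p = 0.0711), while the log2 fold change stayed at 2.02. The antisense gene Gm45542 shares 381 bases, or 7.32%, of the Tlr3 exons, and the use of strand in counting is not given in the sources used here.

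Tlr5 (ENSMUSG00000079164.8, chromosome 1, 182954788 to 182976044, plus strand) had 85 and 87 counts in cKO, against 39 in the Control. Both cKO libraries were higher, at 6.83 and 6.80 CPM, against 3.14 CPM in the Control, whose counting interval of 2.24 to 4.30 CPM did not reach them. The log2 fold change was 1.11 ± 0.34 (SE), or 2.16-fold, and it did not pass (edgeR adjusted p = 0.0685). Among the 500 tested genes nearest to Tlr5 in mean CPM, between 5.05 and 6.19, the smallest log2 fold change called was 1.14 in size. The value of Tlr5 thus lies at the edge of what the reported edgeR fit called at this depth. Tlr5 passed in none of the alternatives, where its adjusted p ran from 0.0569 by the older edgeR method to 0.847 in DESeq2. With prior degrees of freedom of 5 and 3 it was 0.284 and 0.510 in edgeR. By the rule without a test, at least 2-fold higher in each cKO library, the members were Tlr3 and Tlr5, and 2.41% of all genes tested met it. No member was at least 2-fold lower in both, which 1.17% of all genes tested were.

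The lipopeptide and lipopolysaccharide receptors did not pass. Tlr2 (ENSMUSG00000027995.10, chromosome 3, 83836272 to 83841767, minus strand), which pairs with Tlr1 or Tlr6 to bind bacterial lipopeptides, had 314 and 346 counts in cKO, against 252 in the Control. Its levels were 25.2 and 27.0 CPM in cKO, against 20.3 CPM in the Control, a log2 fold change of 0.36 ± 0.19 (SE; edgeR adjusted p = 0.363) with a 95% interval from -0.02 to 0.75. Both cKO libraries were above the Control by less than 1.5-fold. Tlr4 (ENSMUSG00000039005.13, chromosome 4, 66827584 to 66930284, plus strand), the lipopolysaccharide receptor, had 552 and 498 counts in cKO, against 456 in the Control, or 44.3 and 38.9 CPM, against 36.8 CPM. Its cKO libraries differed from each other by more than the lower of them differed from the Control, and the log2 fold change was 0.18 ± 0.16 (SE; edgeR adjusted p = 0.678; 95% interval -0.16 to 0.52). Among the 500 tested genes nearest in mean CPM, the smallest called change was 0.65 for Tlr2 and 0.55 for Tlr4 on the log2 scale.

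Tlr6 and Tlr1 lie side by side on chromosome 5 and are close copies, so their values are uncertain. Of the 50-base stretches in the transcripts of Tlr1, 13.6% also occur in those of Tlr6, and 12.3% of those of Tlr6 occur in Tlr1. No other pair of members shared a 50-base stretch. Tlr6 (ENSMUSG00000051498.6, 64952031 to 64960097, minus strand) had 47 and 47 counts in cKO, against 44 in the Control, a log2 fold change of 0.07 ± 0.37 (SE; edgeR adjusted p = 0.962). Its 95% interval, from -0.71 to 0.85, is wide enough to hold a change of 1.5-fold either way. Tlr1 (ENSMUSG00000044827.10, 64924679 to 64933563, minus strand) had 8 and 3 counts in cKO, against 9 in the Control. The ratio of the summed cKO counts to the Control was 0.600 after scaling, with an exact 95% interval of 0.226 to 1.64 that covers counting error only, so no difference was detectable at this depth.

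Tlr7 (ENSMUSG00000044583.13, chromosome X, 167304929 to 167330558, minus strand), an endosomal receptor for single-stranded RNA, had 4 counts, all in cKO replicate 1, and 0 in the other cKO library and in the Control. Its upper limit was 0.288 CPM in cKO replicate 2 and 0.297 CPM in the Control by the exact Poisson interval, and no fold was drawn from it. The 5 Toll-like receptor genes outside the members were as low, with 4 of them (Tlr9, Tlr11, Tlr12 and Tlr13) at 0 in every library. The other, Tlr8, had 1 and 0 counts in cKO, against 1 in the Control. Of the endosomal receptors among the members, Tlr3 was thus the one with a level that could be tested.

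Among the adaptors, Myd88 (ENSMUSG00000032508.8, chromosome 9, 119335934 to 119341411, minus strand) had 715 and 717 counts in cKO, against 532 in the Control. Both cKO libraries were higher, at 57.4 and 56.0 CPM, against 42.9 CPM, and they lay 0.04 apart on the log2 scale. The log2 fold change was 0.40 ± 0.15 (SE), or 1.32-fold, with an unadjusted p of 0.0149 and an adjusted p of 0.165 in edgeR, so it did not pass. The 95% interval, not adjusted for the number of genes tested, ran from 0.09 to 0.72. Among the 500 tested genes nearest in mean CPM, between 48.3 and 56.2, the smallest called change was 0.51 in size. On the opposite strand Acaa1a, a peroxisomal enzyme gene, overlaps 290 bases, or 11.3%, of the Myd88 exons, and it had 548 and 615 counts in cKO, against 679 in the Control.

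Ticam1 (ENSMUSG00000047123.8, chromosome 17, 56269319 to 56276786, minus strand), the adaptor that Tlr3 signals through, had 550 and 465 counts in cKO, against 451 in the Control. At 44.2 and 36.3 CPM in cKO, against 36.4 CPM in the Control, one cKO library was above the Control and the other level with it. The log2 fold change was 0.15 ± 0.17 (SE; edgeR adjusted p = 0.762; 95% interval -0.20 to 0.50). The difference between Tlr3 and Ticam1 in fold change was not tested. Ticam2 (ENSMUSG00000056130.10, chromosome 18, 46557291 to 46574533, minus strand) had 4 and 4 counts in cKO, against 2 in the Control, a ratio of 1.96 with an exact 95% interval of 0.392 to 19.0. It shares 838 bases, or 14.5%, of its exons with Tmed7, a gene on the same strand with 1682 and 1720 counts in cKO, against 2036 in the Control, so even these few reads may not be its own.

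Levels of different genes were compared per kb of exon. In CPM per kb, Myd88 was the highest at 22.02 ± 0.38 in cKO (SD, n = 2) and 16.7 in the Control. Ticam1 came next, at 13.5 ± 1.9 in cKO and 12.2 in the Control. Below these adaptors stood Tlr2 at 8.67 ± 0.43 and Tlr4 at 7.49 ± 0.69 in cKO, against 6.74 and 6.62 in the Control, where their counting intervals overlapped, as they did in cKO replicate 1 but not in cKO replicate 2. This pair changed places in cKO when the longest transcript was used as the length (8.67 for Tlr2 and 10.2 for Tlr4). Tlr3 stood at 5.67 ± 0.11 in cKO, under Tlr4 with no overlap of their counting intervals, whereas in the Control it was at 1.39, far under Tlr4 and close to Tlr6 at 0.952, with which its interval overlapped. Tlr5 was at 1.42 in cKO, above Tlr6 at 0.999, and at 0.656 in the Control, below Tlr6, and in each library the counting intervals of these 2 genes overlapped. Tlr1, Ticam2 and Tlr7 were the lowest in every library. Their intervals overlapped in both cKO libraries, whereas in the Control that of Tlr1 (0.0991 to 0.412) lay above that of Tlr7, which ended at 0.0728.

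**Figure D3:**
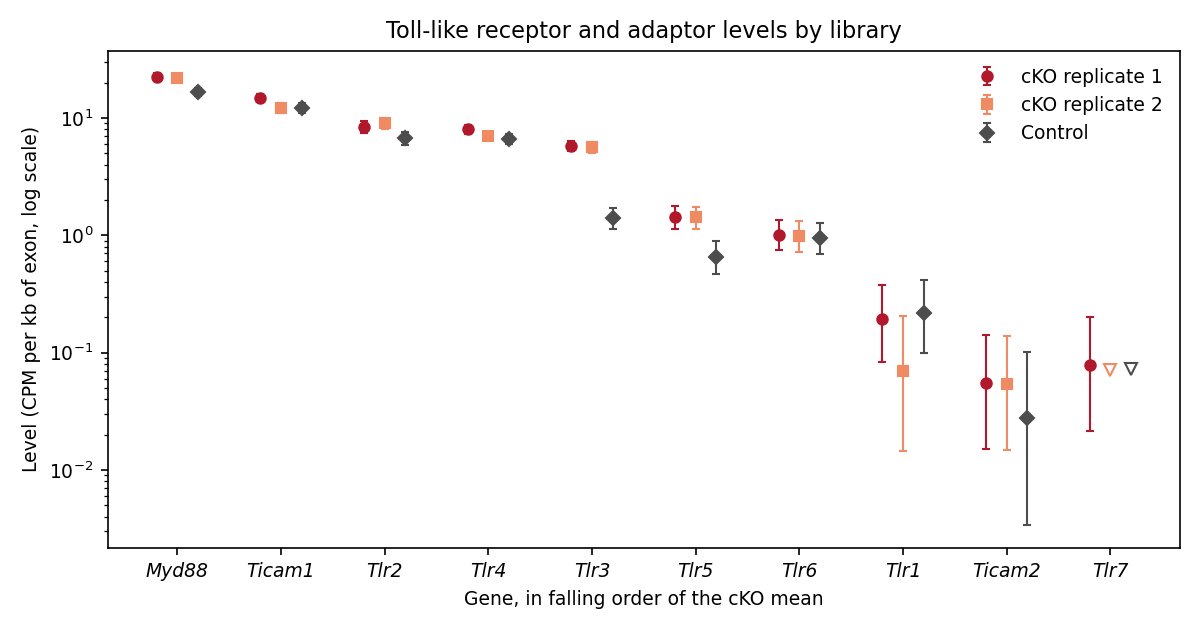
Level of each member in CPM per kb of exon (vertical axis, log scale) in the 2 cKO libraries and the Control, with genes in falling order of the cKO mean. Bars are exact 95% Poisson intervals of the counts, and open triangles mark the upper limit where a library had 0 counts. Tlr3 lies just under Tlr4 in cKO and near Tlr6 in the Control.

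The other genes of the pathway were read from 6 lists with 87 entries in all, not all of which had enough counts to be tested. Of the tested ones, 9 passed in edgeR, 7 higher and 2 lower. Over all genes tested, 3.01% were higher and 1.9% lower, and these shares are the ones to set beside each list below. Without the filter on low counts none of the 9 passed in edgeR (adjusted p between 0.116 for Irf7 and 0.56). Among co-receptors and trafficking factors, 1 of 8 tested rose and 0 fell, with a list median of 0.33 on the log2 scale. This was Rftn1, a lipid raft protein reported in human cells to help deliver double-stranded RNA to TLR3. It had 102 and 97 counts in cKO, against 40 in the Control, a log2 fold change of 1.29 ± 0.33 (SE; edgeR adjusted p = 0.0242), but it did not pass in DESeq2 (adjusted p = 0.473). The Tlr4 partners Cd14 and Ly96 had log2 fold changes of 0.44 and 0.97 (adjusted p = 0.670 and 0.163 in edgeR), and Unc93b1, which carries endosomal receptors to their compartment, had 0.23 (adjusted p = 0.631). The others ran from -0.16 for Lbp, a lipopolysaccharide carrier, to 2.15 for Trem2, a myeloid receptor with 14 counts in each cKO library, against 3 in the Control (adjusted p = 0.889 and 0.233).

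Of 26 tested adaptors, kinases and transcription factors outside the members, 1 rose and 0 fell, with a median of 0.07. The one that rose was Irf7, an interferon-induced transcription factor, with 2264 and 2486 counts in cKO, against 60 in the Control (log2 fold change 5.28 ± 0.19, SE; edgeR adjusted p = 2.23e-14). The remaining 25 lay between -0.42 for Irak4, a kinase that acts next to Myd88, and 1.13 for Irf5 (adjusted p = 0.418 and 0.146 in edgeR). Tirap, which bridges Tlr2 and Tlr4 to Myd88, had 211 and 233 counts in cKO, against 181 in the Control (log2 fold change 0.27, adjusted p = 0.613 in edgeR).

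Among negative regulators, 3 of 14 tested rose and 0 fell, with a median of 0.22. Trafd1, which dampens Toll-like receptor signalling, had a log2 fold change of 0.61 ± 0.14 (SE). The deubiquitinase genes Otud5, whose product acts on Traf3, and Usp25 had 0.58 ± 0.15 and 0.55 ± 0.15 (SE). In edgeR their adjusted p values were 0.0119 for Trafd1, 0.0206 for Otud5 and 0.0317 for Usp25, but in DESeq2 none of the 3 passed (0.151, 0.267 and 0.366). The others ran from -0.36 for Pdcd4, an inhibitor of translation, to 0.78 for Socs1, an inhibitor of cytokine signalling (adjusted p = 0.237 and 0.448 in edgeR). Socs1 had 34 and 82 counts in cKO, against 33 in the Control, so that one cKO library was level with the Control.

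The IL-1 receptor family shares Myd88 with the Toll-like receptors. The list of this family also held cytokine genes and an antagonist gene. Of the 9 tested genes in the list, 2 rose and 0 fell, with a median of 0.49. Il1rl1, the receptor for interleukin-33, had 2477 and 2290 counts in cKO, against 847 in the Control, a log2 fold change of 1.47 ± 0.15 (SE), or 2.77-fold (adjusted p = 3.35e-07 in edgeR). Il1rn, which encodes a secreted antagonist of the interleukin-1 receptor, had 343.6 and 374.3 CPM in cKO, against 224.2 CPM in the Control (log2 fold change 0.68 ± 0.14, SE, adjusted p = 0.00447 in edgeR). Both passed in DESeq2 as well (2.04e-11 and 0.00766), but Il1rl1 did not with prior degrees of freedom of 3 (0.0806), nor did Il1rn with 5 or 3 (0.124 and 0.352). The receptor Il1r1 itself had a log2 fold change of -0.28 (adjusted p = 0.331 in edgeR), and Il18r1, a chain of the interleukin-18 receptor, had the highest value that did not pass, 2.23 on 12 and 8 counts in cKO, against 2 in the Control (adjusted p = 0.329). The cytokine genes Il1a and Il1b had 0 counts in every library.

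Of 9 tested matrix and danger molecules that have been reported to act on TLR2 or TLR4, 0 rose and 2 fell in edgeR, with a median of -0.01 (3 had an unadjusted p under 0.05). The proteoglycan gene Dcn had a log2 fold change of -1.12 ± 0.13 (SE; edgeR adjusted p = 4.04e-06), and Lum -0.89 ± 0.13 (adjusted p = 0.000103). Neither passed with prior degrees of freedom of 3 (0.122 for Dcn and 0.195 for Lum). Bgn, the proteoglycan biglycan, had 53567 and 53441 counts in cKO, against 52888 in the Control, a log2 fold change of -0.01 ± 0.22 (SE) with a 95% interval from -0.48 to 0.46. The others ran from -0.21 for Fn1, which encodes fibronectin, to 0.47 for Vcan, which encodes the proteoglycan versican (adjusted p = 0.915 and 0.0675 in edgeR).

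**Figure D4:**
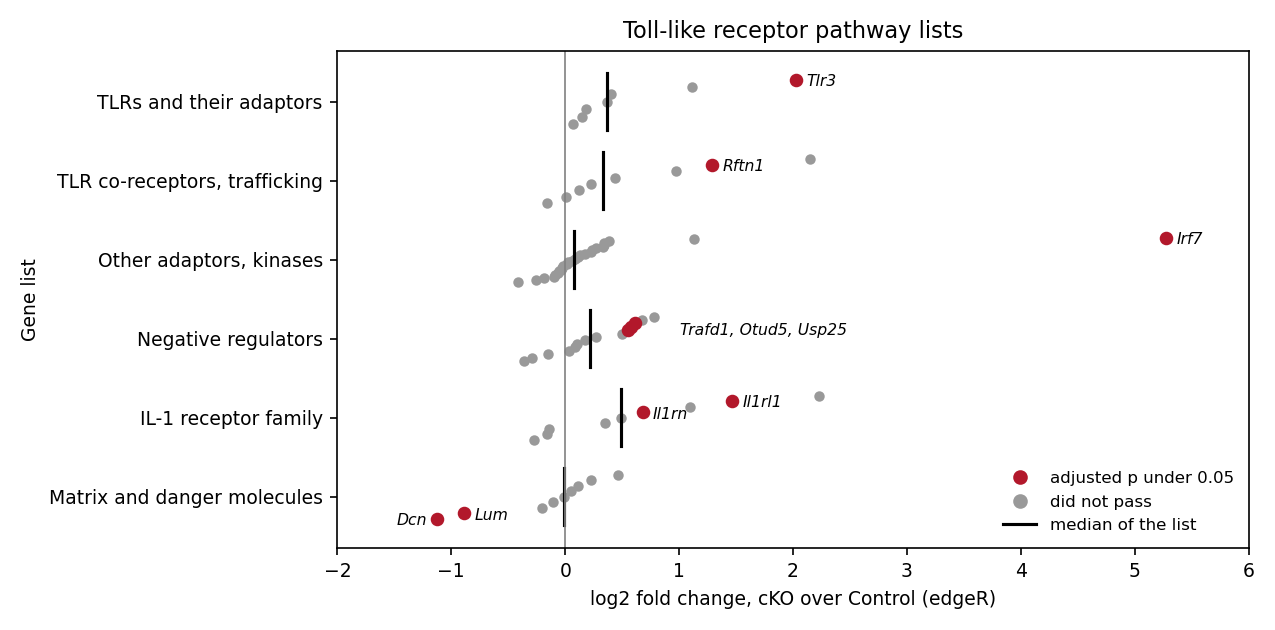
The log2 fold change of cKO over Control (horizontal axis) of each tested gene in the members and in the 5 pathway lists with tested genes (vertical axis). Red points passed at an adjusted p under 0.05 in edgeR, grey points did not, and black bars are list medians. Tlr3 is the one red point among the members, and Irf7 at 5.28 lies farthest from 0.

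Toll-like receptors are also expressed by leukocytes, whose markers were low in all 3 libraries and summed to more in cKO. Of 20 macrophage and leukocyte markers, 8 had 0 counts in every library, among them Itgam, Tyrobp and the complement genes C1qa, C1qb and C1qc. Ptprc, which all leukocytes express, had 1 and 1 counts in cKO, against 0 in the Control. The summed level of the list was 13.1 and 12.4 CPM in cKO, against 7.25 CPM in the Control. Of the 4 tested, 0 passed in edgeR and 2 had an unadjusted p under 0.05, Csf1r with 33 and 28 counts in cKO, against 8 in the Control, and Cd68 with 59 and 57 in cKO and 32 in the Control.

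The markers of 3 other cell types were read in the same way. Of 8 tested fibroblast and synovial markers, 3 rose (Thy1, Cd55 and Prg4) and 0 fell in edgeR, where 5 had an unadjusted p under 0.05. Thy1 was uneven, with 623 and 259 counts in cKO, against 139 in the Control. Dpt and Col3a1 were below the Control in both cKO libraries, with log2 fold changes of -1.29 and -0.28 that did not pass (adjusted p = 0.178 and 0.652). Summed over the list, the level was 12950 and 11540 CPM in cKO, against 12880 CPM in the Control, and most of it was Col1a1 and Col3a1. Endothelial markers summed to 3.21 and 2.50 CPM in cKO, against 0.806 CPM in the Control, with Cdh5, Emcn and Tie1 at 0 in every library, and 0 of 2 tested passed in edgeR (1 had an unadjusted p under 0.05). Mural cell markers summed to 1254 and 1414 CPM in cKO, against 1212 CPM in the Control, and 0 of 5 tested passed in edgeR (2 had an unadjusted p under 0.05). Most of this sum was Cspg4 (756.1 and 762.6 CPM in cKO, 680.9 in the Control) and Acta2 (476.2 and 622.8, against 516.3). Myh11 had 6 and 3 counts in cKO, against 7 in the Control, and Kcnj8 0 and 3, against 0. The part of these other cell types, and of the lower chondrocyte markers, in the values of Tlr3 and Tlr5 was not tested.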

How the data were processed

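RNA of 3 libraries of primary mouse chondrocytes grown in F12 medium with 10% serum was depleted of ribosomal RNA and sequenced on the Ion Proton, per the labels' protocols. The authors deposited whole-number read counts per gene symbol, 1 column per library. Per the submitters' processing notes the builds GRCm38 and GRCh37 were used, with no role stated; the sources used here name neither aligner nor counting tool, nor whether strand was used. Positions and exon lengths are those of GENCODE M21 on GRCm38.

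Counts were filtered with filterByExpr, scaled by TMM and tested with edgeR 4.0.16 in R 4.3.3 (glmQLFit and glmQLFTest with legacy = FALSE, Benjamini-Hochberg over 15529 genes, threshold 0.05). Only 1 residual degree of freedom was left, that between the cKO libraries, so the fit leans on a prior of 19.9 degrees of freedom shared across genes; the Control is assumed to vary like the cKO libraries. The labels do not say whether the libraries came from separate cultures or animals. By Xist the 2 cKO libraries did not come from the same animal, so their spread includes a difference between animals and may be partly technical. The p-values rest on this spread and the shared prior, and the Control adds no spread of its own. Each SE was taken as the size of the log2 fold change over the root of its F value, and 95% intervals use it. Fold changes per library used a prior count of 2. Counting intervals are exact and cover counting error only. The fit was also run on simulated data, drawn for every library with the spread estimated in this fit. That run does not test whether the Control varies like the cKO libraries. The alternatives were RLE size factors, no filter, DESeq2 1.42.0, limma-voom (limma 3.58.1), prior degrees of freedom of 5 and 3, each cKO library left out, and, added after the data had been seen, the older edgeR method. From each pathway list up to 4 genes that passed with the smallest p, among those averaging 1 CPM or more, were named. The lowest and highest of the rest were named with them. Cd14, Ly96, Unc93b1, Tirap, Il1r1, Il1a, Il1b, Bgn, Csf1r, Cd68, Thy1, Cd55, Prg4, Dpt and Col3a1 were named after their values were seen, for their roles. Col1a1, Cspg4, Acta2, Myh11 and Kcnj8 were also named after their values were seen, for their part in a list's sum. No protein sequences were compared; shared 50-base stretches of transcripts were used in their place. Members and lists were chosen with earlier results of these data known.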

Additional observations from a re-analysis of the deposited data

How the results depend on the processing

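All 7 tested members kept a positive log2 fold change in edgeR with RLE size factors, without the filter, with prior degrees of freedom of 5 or 3 and by the older method, and in DESeq2 and limma-voom. Over these 7 alternatives the adjusted p of Tlr3 ran from 3.33e-07 in DESeq2 to 0.188 without the filter. With cKO replicate 1 left out, Ticam1 was at -0.00, against 0.15 with both. Members higher in cKO numbered 1 in the reported fit and 0 without the filter or with prior degrees of freedom of 3, where 3 had an unadjusted p under 0.05 in each; the other tools called 1. Without the filter edgeR called 0 of all genes higher and 0 lower (1829 at an unadjusted p under 0.05), and 0 and 0 pathway genes (14 at an unadjusted p under 0.05), and the estimated prior degrees of freedom were 2.03 in place of 19.9. Against 467 genes higher and 295 lower in the reported fit, DESeq2 called 226 and 84, prior degrees of freedom of 5 gave 151 and 42, and 3 gave 83 and 4. The 7 higher pathway genes became 3 in DESeq2, 2 with prior degrees of freedom of 5 and 1 with 3 (Irf7), and the 2 lower ones became 0 with 3. By the 2-fold rule, leaving out a cKO library gave 2 to 3 members higher and 0 to 1 lower; the lower one was Tlr1, with 3 counts in cKO replicate 2 against 9, and the added higher one Tlr7, with 4 counts in cKO replicate 1 against 0, too few for a fold. With the longest transcript as length, cKO levels in CPM per kb were 23.1 for Myd88, 10.2 for Tlr4, 6.70 for Tlr3, 1.78 for Tlr5 and 0.0754 for Ticam2. No paired analysis was possible because the Control has 1 library and its label carries no number. With a cKO library left out no residual degree of freedom remains, so those values have no test.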
